A study of Rhodotorula toruloides with 36 samples.

Results

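The change of the transcriptome between 64 and 88 h was followed in Rhodotorula toruloides grown in low nitrogen with acetate. The libraries were chosen by their titles: 3 biological replicates taken at 88 h were set against 3 taken at 64 h, which makes 6 of the 36 libraries of the series. The labels name IFO0880, a strain of this red yeast, and no engineered allele. All sample titles begin with Rt88, which the labels do not explain. Both groups received 0.1 g/L ammonium sulfate and 2 g/L acetate. Yeast extract at 0.75 g/L is listed for low nitrogen in the series design. Cultures in the same medium without acetate, and in high nitrogen with 2 g/L acetate, served for comparison at the same times. High nitrogen without acetate is cited in places for context. For high nitrogen the sources differ: 5 g/L ammonium sulfate in one place and 10 g/L in another. The inocula came from 3 colonies grown on glucose, and the carbon source of the flasks other than acetate is not given. Whether a replicate number stands for a colony, and whether a flask was sampled at both times, is not said, so the p-values treat the libraries as independent.

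Rhodotorula toruloides is an oleaginous basidiomycete: when nitrogen runs out while carbon remains, growth slows and carbon is stored as triacylglycerol and carotenoids. Acetate enters metabolism as acetyl-CoA, the building block of fatty acids, and its use as a carbon source in fungi generally needs acetyl-CoA synthetase and the glyoxylate cycle. Which of the measured genes belong to these pathways cannot be read from the files. They pair each mRNA number of the gene catalogue with a protein number and a position, and 0 of the 8490 identifiers matched the reference table at hand, which is of strain NP11. Genes are therefore given by number and by position in the version 4 assembly of IFO0880, and grouped by structure or by their behaviour in other libraries of the series.

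The 6 libraries held between 10173719 and 27033760 counts, with the lowest total in replicate 1 at 64 h. After the filter on low counts 8314 catalogue genes were tested, and 176 were left out. Levels are given in CPM, counts scaled to a library size of 1000000 after adjustment by TMM (trimmed mean of M-values). TMM scales the libraries on the assumption that most genes do not change. CPM are relative to the adjusted library size and are not plain shares of the counts. The amount of RNA per cell is not measured. TMM factors were 0.719 to 0.786 at 64 h and 0.896 to 0.902 at 88 h. A factor below 1 raises the CPM, so CPM were raised more at 64 h. Shares of counts in percent were taken from raw counts. Across genes, log2 CPM correlated (Pearson's r) at 0.986 to 0.995 among the libraries at 64 h, 0.994 to 0.996 among those at 88 h, and 0.956 to 0.981 between the times. Replicate 1 at 64 h lay furthest from the others. Chi-square divided by its degrees of freedom was 26.3 and 44.3 for its counts against replicates 2 and 3, and 15.5 between those. The 3 pairs at 88 h gave 8.72 to 11.9. All 6 libraries were kept.

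In the fit of all 36 libraries with TMM scaling and the filter, more genes were called lower than higher from 64 to 88 h. Most of the 2-fold changes were falls. The test (edgeR's quasi-likelihood F-test, Benjamini-Hochberg adjusted p below 0.05) called 1850 genes higher at 88 h, 22.3% of those tested, and 2335 lower, 28.1%. In all 4185 genes were called, 50.3%. Most shifts were small, and 2329 of the called genes changed by less than 1.5-fold. At least 2-fold changes were found for 141 higher genes, 1.70% of those tested, and for 371 lower genes, 4.46%. At 4-fold the counts were 6 higher and 49 lower, and at 8-fold they were 0 higher and 9 lower. In 500 of the 512 genes changed at least 2-fold (6.16% of those tested) the libraries of both times did not overlap. Those genes were chosen on the same libraries, which favours such a separation. Over all tested genes the 88 h libraries stood above all 64 h libraries in 30.2% and below them in 33.9%.

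The balance depends on the scaling, and with TMM the balance of calls also depends on the filter and the libraries fitted. With TMM and no filter 2206 genes were called higher and 2056 lower. Fitted on the 6 libraries alone, 2263 were called higher and 2277 lower. The 2-fold counts were 190 higher and 316 lower without a filter, and 160 and 327 on the 6 libraries alone. With library totals in place of TMM the median log2 change of all genes moved by 0.25, and 3532 genes were called higher and 1255 lower. The 2-fold counts became 450 higher and 212 lower, so the excess of 2-fold falls is a statement relative to the bulk of genes. Without replicate 1 at 64 h, the library that stood apart, 111 genes were 2-fold higher and 292 lower. Without replicate 3 at 64 h these counts were 218 and 454.

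In percentage points of all counts the shift was larger for the falling genes, as a description of genes chosen on these values with TMM. With library totals the 2-fold sets had other sizes, 450 higher and 212 lower. The 371 genes 2-fold lower at 88 h held 14.3%, 12.6% and 11.5% of all counts in the 64 h libraries and 5.40%, 5.88% and 5.85% in the 88 h libraries. Their counterparts, the 141 genes 2-fold higher, went from 0.836%, 1.03% and 1.21% to 3.01%, 2.79% and 2.85%. The falling genes were thus the more abundant set: their median over all 36 libraries was 65.5 CPM per kb of exon, against 21.9 for the rising genes and 31.3 for all tested genes. At the very top, the 10 most abundant genes took 7.77% to 8.02% of the counts at 64 h and 10.1% to 10.8% at 88 h, without overlap.

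**Figure D1:**
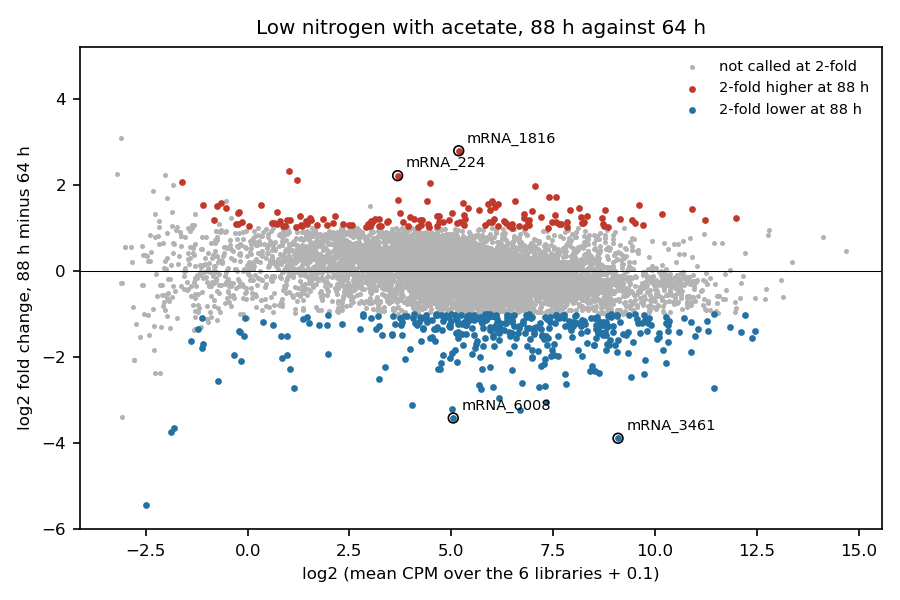
Log2 fold change from 64 to 88 h in low nitrogen with acetate against mean level (log2 of mean CPM over the 6 libraries plus 0.1), 1 point per tested gene. The 141 genes called at least 2-fold higher are red and the 371 lower are blue; the falls reach further than the rises and lie at higher levels.

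The largest fall among genes with at least 10 CPM in the higher group was that of mRNA_3461 (protein 11829, scaffold 18, 154127 to 156420, minus strand, 2 exons, coding length 1863 bp). It stood at 1403, 947 and 721 CPM in the 3 libraries at 64 h and at 65.5, 68.5 and 73.1 CPM at 88 h. The lowest 64 h library thus lay far above the highest 88 h library, and the spread was wide at 64 h and narrow at 88 h. The log2 fold change of mRNA_3461 was -3.89 (SE 0.40, edgeR adjusted p = 7.71e-09). At 48 h this gene had been at 111, 90.3 and 53.6 CPM, so in this medium its mean was highest at the middle of the 3 times. The mean was also highest at 64 h without acetate, with 117 ± 25.5, 328 ± 57.9 and 88.8 ± 7.62 CPM at 48, 64 and 88 h (SD, n = 3). In high nitrogen with acetate it was again highest at 64 h, with 80.8 ± 33.9, 758 ± 93.0 and 190 ± 12.0 CPM, and there 88 h stood above 48 h.

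By the same rule the second-largest fall, that of mRNA_6008, had the same shape. This gene (protein 14376, scaffold 5, 1440694 to 1441642, minus strand, 3 exons, coding length 831 bp) had 92.4, 49.0 and 39.8 CPM at 64 h and 5.67, 5.01 and 6.01 CPM at 88 h. The libraries of both times were well apart, and replicate 1 was again the highest at 64 h. Its log2 fold change was -3.42 (SE 0.34, edgeR adjusted p = 3.91e-09), and -3.00 without that replicate. At 48 h mRNA_6008 had stood at 2.63, 2.12 and 2.23 CPM, below its 88 h level in all 3 libraries. In the medium without acetate its 64 h mean was only 9.11 ± 2.04 CPM, against 3.12 ± 0.579 at 48 h and 4.52 ± 0.284 at 88 h (SD, n = 3).

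Among the rising genes of at least 10 CPM mRNA_1816 led (protein 10184, scaffold 12, 282501 to 284889, plus strand, 9 exons, coding length 1467 bp). Its libraries had 8.75, 8.42 and 10.2 CPM at 64 h and 67.3, 66.1 and 56.5 CPM at 88 h. Replicates lay close together at both times. The log2 fold change was 2.79 (SE 0.27, edgeR adjusted p = 2.99e-09), and the level at 48 h had been 3.17 ± 0.709 CPM (SD, n = 3). Without acetate mRNA_1816 was already at 91.7 ± 23.4 CPM at 64 h and at 144 ± 27.4 CPM at 88 h. The 88 h level with acetate therefore lay below both of these means.

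The next-largest rise, that of mRNA_224 (protein 8592, scaffold 1, 554043 to 556725, minus strand, 10 exons, coding length 1635 bp), also started far below the medium without acetate. With acetate it had 5.60, 3.55 and 4.89 CPM at 64 h and 21.1, 21.9 and 19.4 CPM at 88 h, a log2 fold change of 2.21 (SE 0.14, edgeR adjusted p = 1.73e-12). Without acetate it stayed between means of 119 and 151 CPM at all 3 times. In high nitrogen with acetate mRNA_224 rose from 15.1 ± 1.03 to 135 ± 2.11 CPM between the same times (log2 fold change 3.16, SE 0.12, edgeR adjusted p = 3.51e-18). High-nitrogen cultures without acetate had 84.6 ± 5.98 CPM at 88 h, below the 88 h libraries with acetate.

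**Figure D2:**
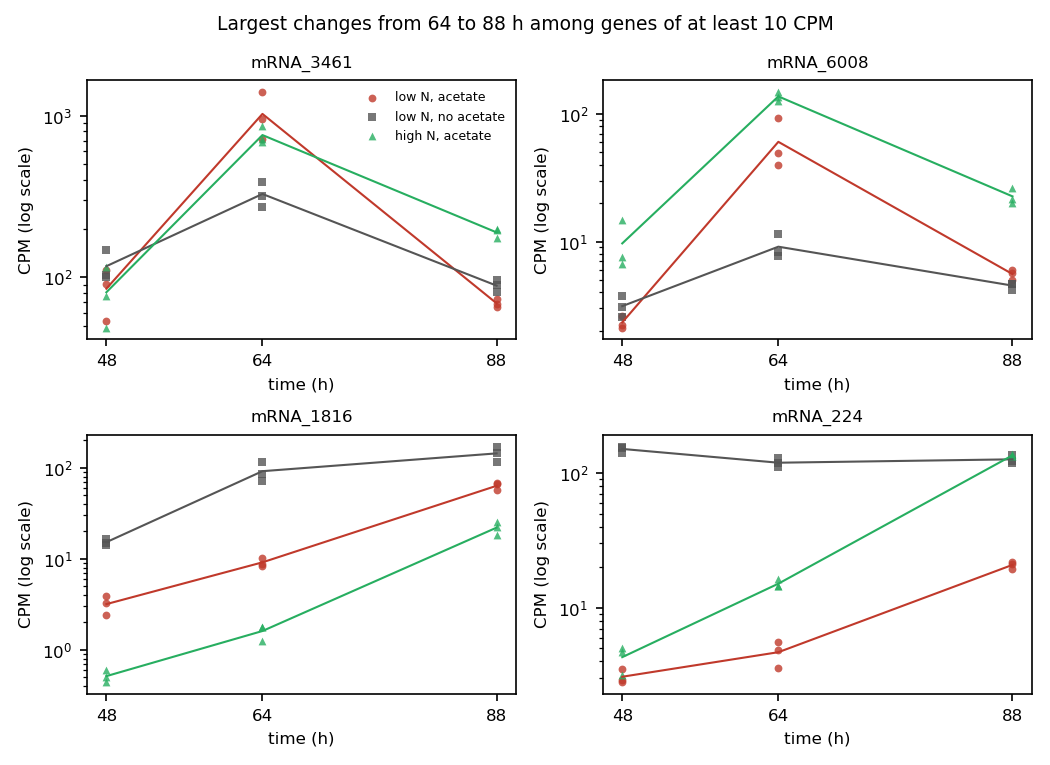
Levels in CPM (log scale) of the 2 rising and 2 falling genes with the largest changes among genes of at least 10 CPM, at 48, 64 and 88 h. Points are single libraries and lines join the means of 3; red is low nitrogen with acetate, grey low nitrogen without it, green high nitrogen with it. mRNA_3461 and mRNA_6008 are highest at 64 h in the 3 media, and mRNA_1816 and mRNA_224 are lower with acetate than without it in low nitrogen at each time.

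The 2-fold genes were chosen on the 64 and 88 h libraries, whose values are given only as a description, while the 48 h libraries had no part in the choice. The choice favours low 64 h values in the rising genes and high ones in the falling genes. Setting these 64 h libraries against 48 h or against another medium is therefore description as well. The 141 rising genes had a median of 4.05 to 4.07 log2 CPM in the 48 h libraries, 3.88 to 4.08 at 64 h and 5.11 to 5.44 at 88 h. In these libraries their typical level was similar at 48 and 64 h and higher at 88 h. The 371 falling genes had medians of 6.20 to 6.33 at 48 h, 6.71 to 7.16 at 64 h and 5.50 to 5.63 at 88 h. Their level at 64 h stood above that at 48 h in every library, and by 88 h it was below both. In low nitrogen without acetate, whose libraries were not used in the choice either, the falling genes had medians of 5.96 to 6.00, 6.10 to 6.17 and 5.06 to 5.18 at the 3 times. There the level at 64 h was lower than with acetate, and the level at 88 h was again the lowest of the 3 times.

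Many genes that acetate had raised early fell after 64 h. At 48 h 326 genes had been at least 2-fold higher with acetate than without it in low nitrogen, 3.92% of those tested. Of these, 149 (45.7%) were called lower and 16 (4.91%) higher from 64 to 88 h, against 28.1% and 22.3% of all tested genes. Their median log2 change was -0.48, which is -0.47 relative to the median of all genes with either TMM or library totals. The same genes had a median log2 change of -0.27 without acetate and -0.41 in high nitrogen with acetate over these times. In single libraries their median went from 5.10 to 5.26 log2 CPM at 48 h through 4.34 to 4.63 at 64 h to 3.87 to 4.00 at 88 h. Without acetate the same genes stood at 3.01 to 3.23 at 88 h. The level with acetate was still above that without it in all libraries at 88 h.

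Genes that acetate had lowered early went both ways. These were 549 genes, 6.60% of those tested, chosen on 48 h libraries. From 64 to 88 h 150 of them (27.3%) were called higher and 117 (21.3%) lower, and 2-fold changes were found in 36 (6.56%) upward and 44 (8.01%) downward, against 1.70% and 4.46% of all genes. Both shares of 2-fold changes were larger than over all genes. Their median in single libraries was 3.79 to 3.82 log2 CPM at 48 h, 4.91 to 5.24 at 64 h and 5.26 to 5.36 at 88 h. The medium without acetate had 5.26 to 5.55 at 88 h, so the libraries with and without acetate overlapped at that time.

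Genes that differed with nitrogen at 48 h were grouped in the same way, to be read against 22.3% called higher and 28.1% called lower of all tested genes. Of 860 genes at least 2-fold higher in low than in high nitrogen with acetate at 48 h (10.3% of those tested), 28.6% were called higher and 25.0% lower from 64 to 88 h. Of the 1065 genes lower in low nitrogen (12.8%), 15.3% were called higher and 24.0% lower. Genes that had risen at least 2-fold from 48 to 64 h without acetate in low nitrogen, 603 in number (7.25%), were called lower after 64 h with acetate in 40.6% and higher in 17.4%. The 583 that had fallen at least 2-fold there (7.01%) were called lower in 32.4% and higher in 14.1%.

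With TMM most long genes fell: of the 300 with a coding length of at least 4000 bp, 176 (58.7%) were called lower and 15 (5.00%) higher, and 0 rose 2-fold. Of all tested genes 28.1% were called lower, 22.3% higher and 1.70% 2-fold higher. With library totals 96 of the long genes were called lower and 53 higher. For the long genes the median log2 change was -0.35. It was -0.27 without acetate, -0.12 in high nitrogen with acetate and -0.51 in high nitrogen without it, so it was below 0 in all 4 media. Relative to the median of all genes it was -0.34 with TMM and -0.33 with library totals. The median level of these genes varied more between replicates at 64 h (SD 0.13 log2 units, n = 3) than at 88 h (SD 0.05). Genes of 20 or more exons, 67 in number, were called lower in 40.3% and higher in 13.4%. Single-exon genes, of which 368 of 431 were tested, were called higher in 19.3% and lower in 15.5%. Whether RNA quality differed between the times is not given in the labels, and its part in the length pattern was not tested.

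The shares of all tested genes, 22.3% higher and 28.1% lower, are the background for groups by position. Genes overlapping a neighbour on the opposite strand (1188 tested) were called higher in 23.1% and lower in 25.7%, and members of head-to-head pairs with starts under 500 bp apart (2974 tested) in 24.8% and 28.7%. Within 20000 bp of the outermost annotated base of a scaffold, 118 of 318 genes (37.1%) were called lower and 54 (17.0%) higher. Of the 141 genes that rose 2-fold 115 had no adjacent gene that also rose 2-fold, and of the 371 that fell 296 had none that also fell. Of all tested genes 1.70% rose 2-fold and 4.46% fell 2-fold. How many would lie side by side by position alone was not computed, so these counts do not say whether changed genes cluster. Among the 18 scaffolds with at least 130 tested genes, the share of genes that fell 2-fold went from 2.06% on scaffold 10 (8 of 389) to 9.01% on scaffold 17 (20 of 222), against 4.46% of all genes. The longest stretch of adjacent genes that all rose 2-fold held 2 genes, and the longest of genes that all fell 2-fold held 3.

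**Figure D3:**
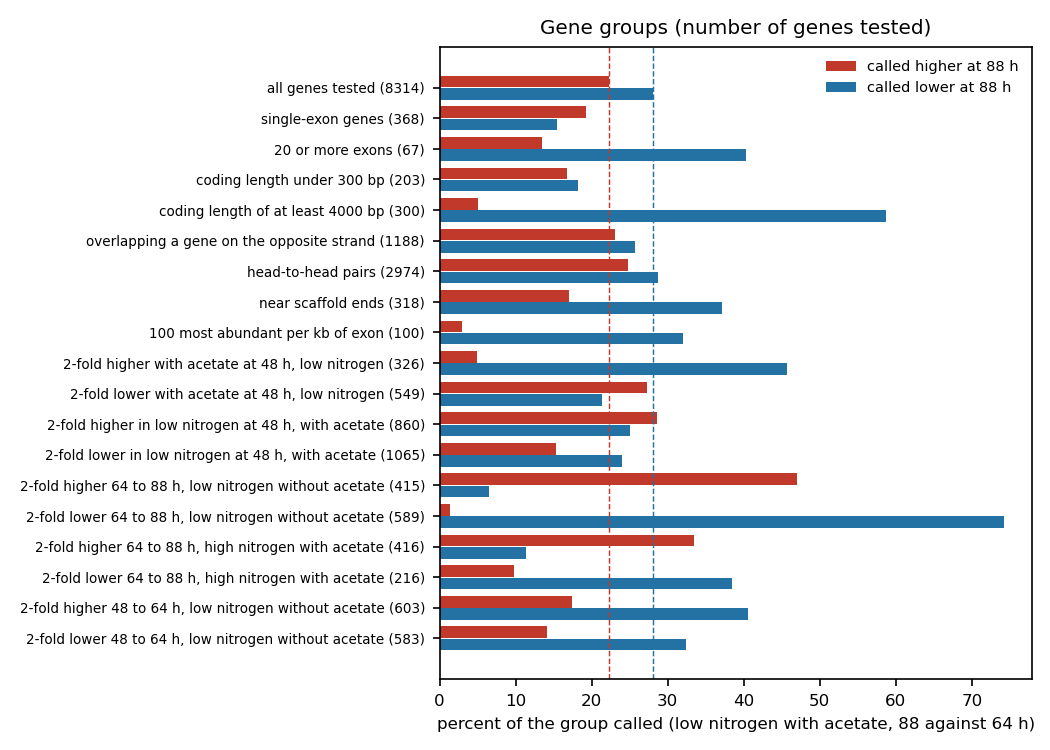
Share of each gene group called higher (red) or lower (blue) at 88 h against 64 h in low nitrogen with acetate, in percent of the genes tested, whose number stands in brackets. Dashed lines mark all tested genes, 22.3% and 28.1%; long genes, genes raised early by acetate and genes that fell without acetate reach furthest to the right in blue.

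The direction of change went with the level of a gene. The tested genes were put into 10 bins by mean log2 CPM over all 36 libraries, not divided by exon length. The median log2 change was 0.25 and 0.27 in the lowest 2 bins and went down from there to -0.34 in the highest. Whether this pattern is separate from that of the long genes was not tested. In the highest bin 451 of 832 genes (54.2%) were called lower and 79 (9.50%) higher. In the second bin it was 73 of 831 (8.78%) and 262 (31.5%). With library totals all bins moved up, to 0.50 in the lowest and -0.08 in the highest, and the order from the second bin to the highest was kept. A gradient in the same direction was seen without acetate, from 0.36 to -0.23 in low and from 0.66 to -0.37 in high nitrogen. In high nitrogen with acetate the bins lay between -0.02 and 0.09. Among the 100 genes with most CPM per kb of exon, 32 were called lower and 3 higher, where the shares of all tested genes were 28.1% and 22.3%. The share called lower was thus near the background, and the share called higher was far below it. With TMM the median log2 change of these 100 genes was -0.23 (quartiles -0.36 and -0.14), against -0.01 for all tested genes. With library totals the medians were 0.02 and 0.24.

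**Figure D4:**
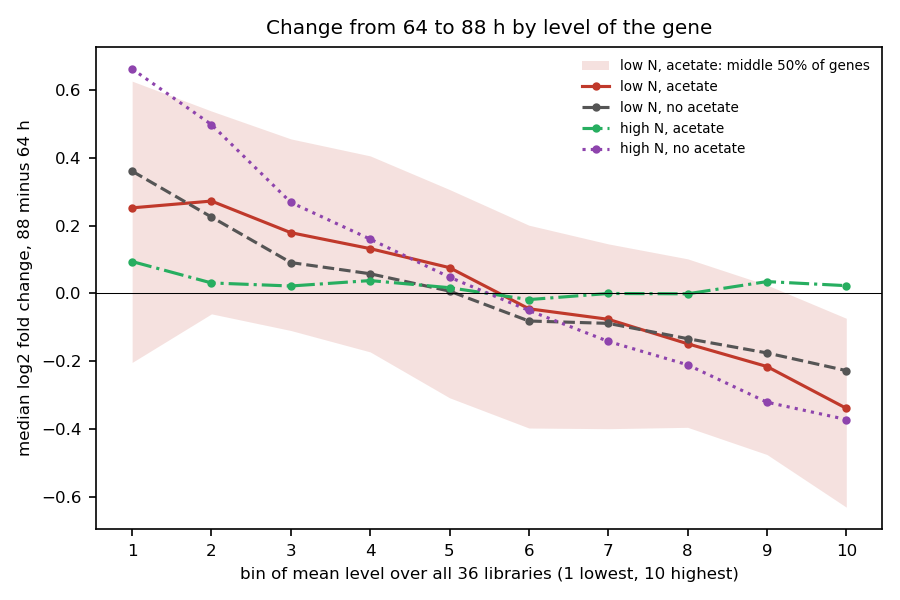
Median log2 fold change from 64 to 88 h (y axis) in 10 bins of mean level over all 36 libraries (x axis), for the 4 media. The shaded band spans the middle 50% of genes in low nitrogen with acetate, whose medians go from 0.27 in bin 2 to -0.34 in bin 10; high nitrogen with acetate is nearly flat.

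The second question was whether the change from 64 to 88 h was the same without acetate. Both low-nitrogen media share no library here, although their inocula came from the same colonies. Across the 8314 genes, which are not independent replicates, their log2 changes correlated with Pearson's r of 0.597 and Spearman's rho of 0.632. Over genes the SD of the log2 change was 0.57 with acetate and 0.66 without. Without acetate 59.9% of the genes were called. Of the 589 genes that fell 2-fold without acetate (7.08%), 437 (74.2%) were called lower with it and 8 higher. Of the 415 that rose 2-fold without acetate (4.99%), 195 (47.0%) were called higher with it and 27 lower. Of all tested genes 28.1% were called lower with acetate and 22.3% higher. The 2-fold lists shared 195 falling genes, 52.6% of those falling with acetate and 33.1% of those without. They shared 45 rising genes, 31.9% and 10.8% of the lists.

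The difference itself was tested as an interaction, the change with acetate minus the change without. It was called in 2054 genes, 24.7% of those tested. In 206 genes (2.48%) the change was at least 2-fold more positive with acetate and in 254 (3.06%) at least 2-fold more negative. With library totals these were 341 and 163, and the calls, 1026 positive and 1028 negative with TMM, became 1977 and 586. These genes were chosen by the interaction on the same libraries. That choice favours changes that lie apart, so their medians are only a description. The 254 had risen by a median of 0.99 log2 units without acetate and changed by -0.32 with it. The 206 had a median change of -1.08 without acetate and 0.21 with it. Genes called in opposite directions in both media numbered 35 of the 206 and 82 of the 254. The share of all tested genes called in opposite directions was not computed, so no excess can be read from these counts.

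The largest interactions came from genes that rose steeply without acetate. mRNA_1166 (protein 9534, scaffold 10, 554696 to 557375) and mRNA_1168 (protein 9536, scaffold 10, 560830 to 563177) lie on the minus strand with 3454 bp and 1 gene between them. Without acetate mRNA_1168 had 28.8, 29.4 and 31.1 CPM at 64 h and 1014, 1617 and 937 CPM at 88 h. With acetate it had 19.7, 31.8 and 23.2 CPM at 64 h and 47.2, 40.0 and 36.0 CPM at 88 h. The 88 h libraries with acetate stood just above those at 64 h, and far below those without acetate. The log2 fold change of mRNA_1168 was 0.70 with acetate (SE 0.17) and 5.32 without (SE 0.19), an interaction of -4.62 (SE 0.24, edgeR adjusted p = 3.14e-14). For mRNA_1166 the 88 h levels were 55.2, 42.8 and 41.4 CPM with acetate and 1241, 1900 and 1122 CPM without, from 64 h means of 18.1 ± 1.97 and 26.8 ± 5.81 (SD, n = 3). Its interaction was -4.38 (SE 0.29, edgeR adjusted p = 7.47e-12).

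In the other direction mRNA_7939 (protein 16307, scaffold 9, 58388 to 59651, plus strand) led, on few counts. With acetate it had 0, 2 and 2 counts in the 64 h libraries and 5, 10 and 7 at 88 h. The ratio of 88 to 64 h counts scaled to library size was 4.31, with an exact 95% interval of 1.46 to 17.2 that covers counting error only. Without acetate it went from 11.0 ± 2.37 to 2.91 ± 0.627 CPM (SD, n = 3). Its fitted interaction of 3.94 (SE 0.73, edgeR adjusted p = 0.00019) rests on those counts. The second was mRNA_2815 (protein 11183, scaffold 15, 286739 to 289014, plus strand), with 3.42, 2.92 and 3.89 CPM at 64 h and 5.13, 6.18 and 5.06 CPM at 88 h with acetate. Without acetate its libraries fell from 10.0, 14.0 and 14.3 CPM to 3.76, 3.61 and 5.62 CPM, and the interaction was 2.25 (SE 0.25, edgeR adjusted p = 7.19e-08). At 88 h the libraries with and without acetate overlapped.

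**Figure D5:**
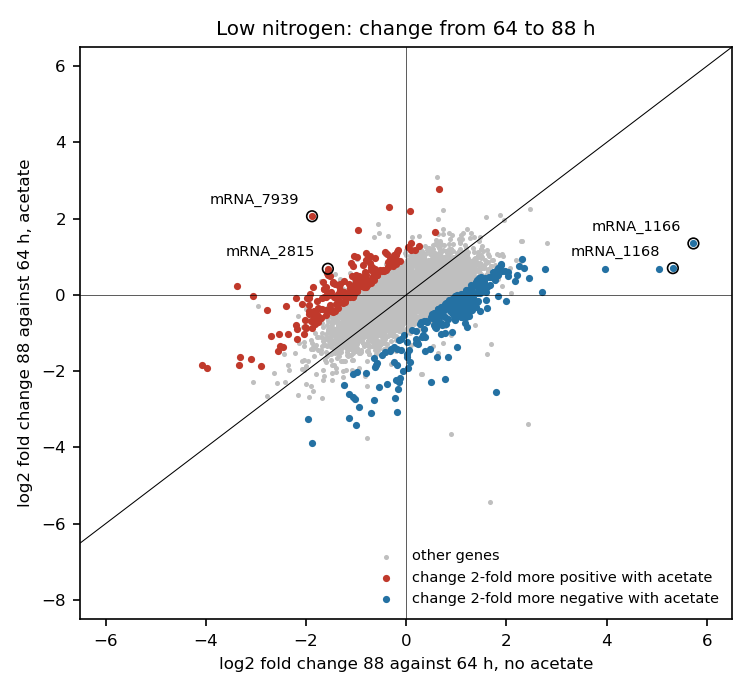
Log2 fold change from 64 to 88 h in low nitrogen with acetate (y axis) against that without acetate (x axis), 1 point per tested gene, with the line of equal change. Red and blue mark genes whose change was at least 2-fold more positive (206) or more negative (254) with acetate by the interaction test; mRNA_1166 and mRNA_1168 lie far to the right, at 1.35 and 0.70 on the y axis.

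The third question was whether the change depended on nitrogen. In high nitrogen with acetate 41.2% of the genes were called from 64 to 88 h. The interaction with nitrogen, the change in low minus that in high nitrogen with acetate, was called in 3640 genes, 43.8% of those tested. It was at least 2-fold positive in 345 (4.15%) and at least 2-fold negative in 656 (7.89%), against 655 and 377 with library totals. The calls were 1385 positive and 2255 negative with TMM, and 2583 and 1287 with library totals. The log2 changes in both nitrogen media correlated across genes with r of 0.229 and rho of 0.185. Set against high-nitrogen cultures lacking acetate, the same low-nitrogen changes gave larger values, 0.409 for r and 0.467 for rho. The lowest values were thus those of high nitrogen with acetate. Those of high nitrogen without acetate were still below the 0.597 and 0.632 found against low nitrogen without acetate. What sets these values apart was not tested. The 656 and 345 genes were likewise chosen by the interaction on these libraries, so their values are only a description. With acetate, the 656 genes had a median change of -0.75 in low and 0.68 in high nitrogen, and 214 of them were called in opposite directions. The 345 had medians of 0.59 and -0.75, with 121 called in opposite directions. For these counts, too, the share over all tested genes was not computed.

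In all 4 named genes the larger log2 change was in high nitrogen. mRNA_1581 (protein 9949, scaffold 11, 651714 to 653081, plus strand, coding length 318 bp) stood at 8.75, 6.43 and 4.22 CPM at 64 h and 7.78, 5.21 and 7.53 CPM at 88 h in low nitrogen with acetate. These libraries overlapped, and the log2 change of 0.15 was not called (SE 0.24, edgeR adjusted p = 0.635). In high nitrogen with acetate mRNA_1581 went from 14.0, 12.0 and 20.1 to 1020, 1004 and 884 CPM, which gave an interaction of -5.83 (SE 0.32, edgeR adjusted p = 8.6e-14). The gene mRNA_294 (protein 8662, scaffold 1, 694708 to 695941, plus strand) moved in opposite directions. It fell from 137, 59.4 and 55.1 CPM to 21.2, 22.8 and 16.9 CPM in low nitrogen and rose from 32.8 ± 1.74 to 326 ± 13.3 CPM in high nitrogen (SD, n = 3). Its interaction was -5.32 (SE 0.38, edgeR adjusted p = 2.6e-11). mRNA_294 overlaps a gene on the other strand and the strand setting of the counting is not given, so its counts are uncertain.

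With a positive sign the interaction was led by mRNA_2043 and mRNA_6255. Levels of mRNA_2043 (protein 10411, scaffold 12, 820542 to 820955, plus strand, 1 exon, coding length 192 bp) were low in low nitrogen with acetate, 0.547, 1.02 and 1.11 CPM at 64 h and 1.75, 1.80 and 2.02 CPM at 88 h. In high nitrogen they fell from 34.1, 12.3 and 24.5 CPM to 1.89, 1.31 and 1.74 CPM, and the interaction of mRNA_2043 was 4.82 (SE 0.46, edgeR adjusted p = 3.75e-09). The gene mRNA_6255 (protein 14623, scaffold 6, 365616 to 367386, minus strand) fell in both media, by very different amounts. In low nitrogen its libraries went from 812, 536 and 386 CPM to 107, 128 and 141 CPM, and in high nitrogen from 493, 469 and 511 CPM to 4.11, 3.64 and 3.72 CPM. The log2 changes of mRNA_6255 were -2.20 (SE 0.22) and -7.01 (SE 0.28), an interaction of 4.81 (SE 0.32, edgeR adjusted p = 7.64e-12). Without acetate in low nitrogen its 88 h mean was 13.7 ± 1.42 CPM (SD, n = 3), so the level with acetate was still above it in all libraries.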

How the data were processed

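Messenger RNA of 36 samples was sequenced from both ends on stranded libraries, per the labels' protocols. The deposited values are whole-number counts per mRNA of the IFO0880 catalogue. The authors' description calls them scaled to library size, but the totals differ between libraries, so the values were treated as raw. Tools named in the submitters' processing notes are Subread 2.0.4 with featureCounts, STAR 2.7.10a, Trimmomatic 0.39, MultiQC 1.9 and FastQC 0.11.9. Strand setting and treatment of multiply matching reads are not given in the sources used here, so counts of paralogs and overlapping genes are uncertain. Positions come from the deposited catalogue.

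Counts were filtered by edgeR's filterByExpr, scaled by TMM and fitted with edgeR 4.0.16 in R 4.3.3, with 1 mean per group over all 36 libraries. Genes with Benjamini-Hochberg adjusted p below 0.05 over all tested genes were called, and 2-fold genes were those called with a log2 change of at least 1 in either direction. SE is the absolute log2 change divided by the square root of F, an approximation that is poor at few counts. Log2 CPM used a prior count of 2. In the 6 libraries 3 counts equal 0.135 to 0.410 CPM. Genes were named by rule: per comparison, the 2 highest and 2 lowest log2 changes among called genes whose highest group averaged 10 CPM or more. For 88 against 64 h their libraries also could not overlap. Gene groups are described by counts and medians, without tests. The comparison, groups and rules were chosen with earlier results of these data known. The fit was tested on simulated data.

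Each library was left out in turn. The other alternatives were a replicate block, only the groups compared, thinning to 10173719 counts, no filter, a stricter filter of 10 CPM in 3 libraries, DESeq2 1.42.0, library totals without TMM, and RLE factors.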

Additional observations from a re-analysis of the deposited data

Results flagged for a closer look

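The change from 64 to 88 h differed between media by the interaction test in the following results. For the change with acetate minus that without it in low nitrogen, the interaction reached 2-fold in 206 genes with a positive sign and in 254 with a negative one. The named genes were mRNA_1168 with a log2 interaction of -4.62, mRNA_1166 with -4.38, mRNA_7939 with 3.94 and mRNA_2815 with 2.25. For the change in low minus high nitrogen with acetate, it reached 2-fold in 345 genes with a positive sign and in 656 with a negative one. The named genes were mRNA_1581 with -5.83, mRNA_294 with -5.32, mRNA_2043 with 4.82 and mRNA_6255 with 4.81. Outlying libraries were not tested, since every group had 3.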

How the results depend on the processing

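All 216 recomputed log2 changes of the 12 named genes kept their direction and call. With library totals alone the counts of 2-fold higher and lower genes were 450 and 212 for 88 against 64 h, 341 and 163 for the interaction with acetate, and 655 and 377 for that with nitrogen. Counts for 88 against 64 h ranged, with each library left out, from 3518 to 4046 called, 111 to 218 2-fold higher and 292 to 454 2-fold lower; the 218 arose without replicate 3 at 64 h. For the interaction with acetate they were 1607 to 2059, 175 to 261 and 222 to 269, and for that with nitrogen 3218 to 3569, 309 to 367 and 592 to 716. Without a filter 2206 genes were called higher and 2056 lower. A replicate block gave 4225 called genes, 145 2-fold higher and 372 lower. Deviations of same-numbered libraries at 64 and 88 h correlated with -0.23, -0.05 and -0.18 across genes, so the numbers were not taken as pairs. Of 406 group medians 345 moved by less than the replicate SD; library totals moved all 29 upward, by about 0.25. Without a filter the interaction with nitrogen had 1755 positive and 1855 negative calls. Replicate 1 at 64 h had the fewest counts, and libraries thinned to its total gave 3919 calls.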
